A study of Caenorhabditis elegans with 2 samples.

Results

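rpr-1 is the gene of the RNA component of ribonuclease P, and ints-8 is the protein-coding gene in which it lies. Both were taken by name from the Ensembl annotation of the worm genome, 2 of 46926 annotated genes. They were chosen by the signal at rpr-1, so the levels at the pair are given as a description, with no test. NHR-12, a nuclear hormone receptor, was mapped by ChIP-seq, the sequencing of DNA recovered with an antibody to a chromatin protein. A strong peak sat on the start of rpr-1 in both replicates, and a weaker region sat on the start of ints-8.

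The samples were whole Caenorhabditis elegans embryos of mixed stage and pooled sex, in 1 group with 2 biological replicates. Every embryo was of strain OP318, which carries the unc-119(ed3) allele and the transgene wgIs318, described as an insertion that targets nhr-12 and tags its product with eGFP, a green fluorescent protein. The labels name neither the promoter of the transgene nor the number of independent lines, and the antibody field names nhr-12. A region found in whole embryos may come from a few cells or from many, which cannot be told apart. No second condition was given, and the listed control was not analysed here. Neither labels nor files give read counts, so the depth behind each value is unknown.

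RNase P is the enzyme that trims the 5′ end of precursor tRNAs, and its RNA holds the catalytic centre. RNase MRP, a related enzyme built on the RNA of mrpr-1, shares many of its proteins and is known in yeast and mammals for its part in ribosomal RNA processing. In vertebrates the genes of both RNAs, of U6 snRNA and of Y RNA are transcribed by RNA polymerase III (Pol III) from promoters that lie upstream of the start, made of a proximal sequence element and a TATA box. ints-8 encodes a subunit of Integrator, a complex that cleaves nascent RNA of RNA polymerase II (Pol II), first known for making the 3′ ends of snRNAs. tRNA genes, by contrast, carry their Pol III promoter inside the gene.

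Pieces of sequence just before the start set rpr-1 beside a small number of other RNA genes, and those of its relatives outside its own chromosome are shown here from the RefSeq copy of WBcel235, the assembly also called ce11. Each line runs 5′ to 3′ on the strand of the gene, from 90 bases before the start through the first 10 bases from it. Capitals mark an upstream word (AACCC, then 6 bases of any kind, then TGTC) and a TATA word (TATATA). Both words were chosen after the sequence at rpr-1 had been seen. mrpr-1 is shown as the nearest relative (II:7200143-7200242, plus strand), WBGene00014543 as a U6 snRNA gene with a peak (III:10989589-10989688, plus strand), and yrn-1, a small cytoplasmic RNA gene, as one with TATA words only (IV:7499418-7499517, plus strand). sls-2.8, an SL2 spliced leader RNA gene (III:12250375-12250474, plus strand), and the snoRNA genes ZK994.7 (V:8500489-8500588, plus strand) and Y53F4B.47 (II:15025884-15025983, minus strand) are shown as the genes with a peak that have the upstream word only.
mrpr-1: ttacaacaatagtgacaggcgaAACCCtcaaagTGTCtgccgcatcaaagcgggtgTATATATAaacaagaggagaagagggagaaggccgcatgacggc
WBGene00014543: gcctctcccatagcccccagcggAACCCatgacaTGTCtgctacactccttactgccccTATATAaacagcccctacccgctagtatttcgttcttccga
yrn-1: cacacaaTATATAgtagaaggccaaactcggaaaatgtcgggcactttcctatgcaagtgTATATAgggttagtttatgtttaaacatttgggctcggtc
sls-2.8: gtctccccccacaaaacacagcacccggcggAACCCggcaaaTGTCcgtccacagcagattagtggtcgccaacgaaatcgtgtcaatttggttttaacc
ZK994.7: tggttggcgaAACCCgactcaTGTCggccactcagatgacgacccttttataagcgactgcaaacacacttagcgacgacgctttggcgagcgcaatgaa
Y53F4B.47: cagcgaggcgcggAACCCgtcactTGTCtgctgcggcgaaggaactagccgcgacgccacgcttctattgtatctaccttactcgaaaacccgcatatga

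rpr-1 (WBGene00045238) spans I:13463955-13464207 on the plus strand and is 253 bp long, with the biotype ncRNA. ints-8 (WBGene00013021) spans I:13455356-13470371 on the minus strand, 15016 bp. It has 2 annotated transcripts, one of 10 exons and one of 6. rpr-1 lies whole within intron 5 of the longer transcript, which is 2023 bp long, and is read from the strand opposite to its host. The gene begins 1216 bp from one edge of the intron and ends 554 bp from the other, and the 2 gene starts are 6416 bp apart. The shorter ints-8 transcript starts at 13464846, 639 bp past the end of rpr-1 and running towards it, so this second start lies 891 bp from that of rpr-1.

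The authors deposited 4 lists of regions on ce11. Each replicate has a list of 30000 candidate regions, a pooled list of 28574 candidates was called on both, and a thresholded list holds the peaks kept by comparing replicates. The thresholded peaks made up 0.871% of the pooled candidates and were the ones with the largest signal. Each region carries the signal of the authors' peak caller against the control, on a scale the sources do not state, and a −log10 q value. Signals are set against each other only within a list, and ranks are by signal. In the pooled list 99.99% of summits lay at the midpoint of the region, with a median width of 356 bp, so a summit there is the middle of a region of fixed size. The replicate lists had a median width of 376 bp.

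At rpr-1 the pooled and thresholded lists held the same region, I:13463785-13464140, with a signal of 82.4 and rank 9 in both. Replicate 1 had a signal of 48.7 there and rank 7, and replicate 2 a signal of 37.6 and rank 9. Summits lay 8 bp past the start of rpr-1 in the pooled list, 20 bp past it in replicate 1 and 10 bp past it in replicate 2. All of them fell in the first part of rpr-1, none in an exon of ints-8, and 6396 bp or more from the ints-8 start. Only 1 region of replicate 1 and 2 of replicate 2 on the same chromosome had a larger signal, and the peak was the second of 40 thresholded peaks there. The −log10 q of the peak, 2.61, was the highest value in its list, shared by 203 peaks, so it does not order them.

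**Figure D1:**
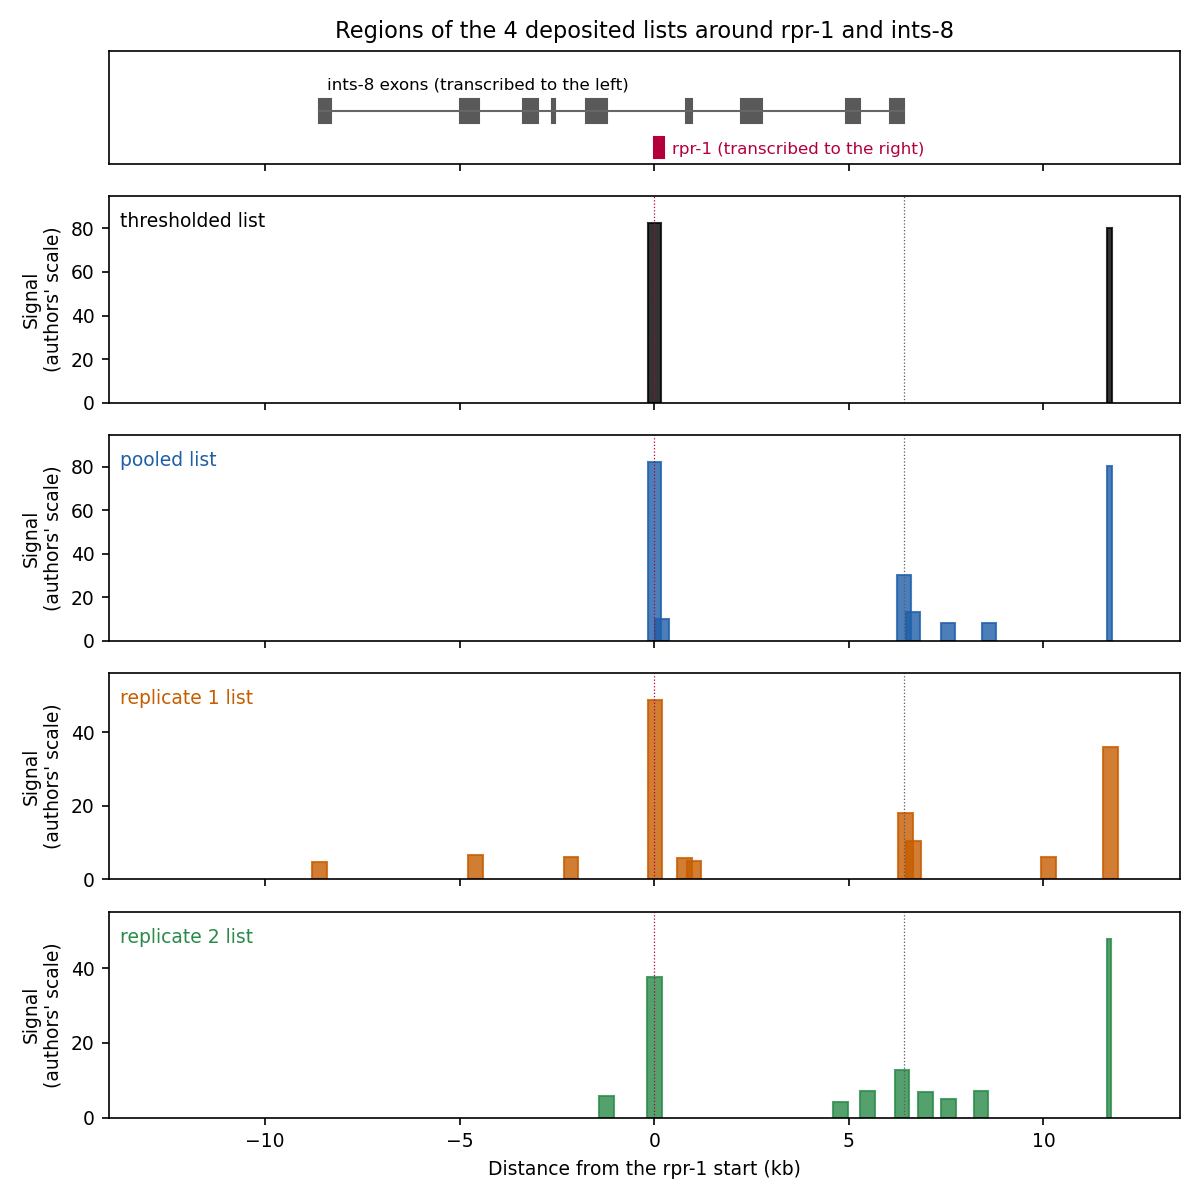
Signal (authors' scale, different for each list) against distance from the rpr-1 start in kb, with the exons of the longer ints-8 transcript on top and each bar as wide as its region; dotted lines mark the 2 starts. In every list the tallest region within 5 kb sits on the rpr-1 start (82.4 in the pooled list), and in all but the thresholded list a lower one (30.1 in the pooled list) sits on the ints-8 start; the bar farthest right (80.4 in the pooled list) lies just outside 5 kb.

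The placement was tight compared with most peaks. Over the pooled list and both replicates, the summits at rpr-1 spanned 12 bp. Among the 248 thresholded peaks that overlap a region of both replicates the median span was 40.5 bp, and 49 had a span below 12 bp. Both replicates also ranked the region alike. Of those 248 peaks, 5 ranked 10 or better in both replicates, rpr-1 among them, and 2 had a worse replicate rank better than 9. The median ranks of these peaks were 142.5 in replicate 1 and 155.5 in replicate 2. The rank at rpr-1 was part of how the gene was chosen. Its span was not compared with peaks of like signal: the median thresholded signal was 39.2, against 82.4 at rpr-1. The pooled summit is also not independent of the 2 replicates.

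**Figure D2:**
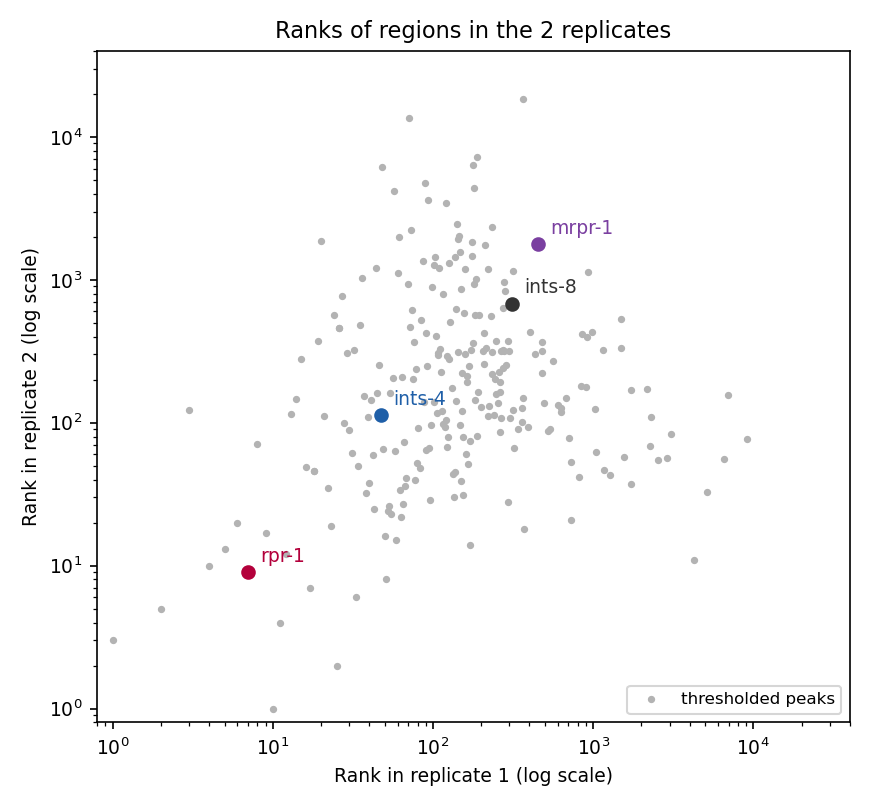
Rank of regions in replicate 1 (x axis, log scale) and replicate 2 (y axis, log scale); grey points are the 248 thresholded peaks found in both replicates, and coloured points are the best start-window regions of rpr-1, ints-4, ints-8 and mrpr-1. rpr-1 lies in the lower left corner with ranks 7 and 9, while ints-8 has ranks 311 and 679.

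A second pooled candidate, I:13463987-13464342, overlapped the peak and had its summit 210 bp past the start, near the end of rpr-1. Its signal was 10.1 and its rank 15795. Neither replicate list held a second region with its summit in the 253 bp of rpr-1. The median signal of the pooled list was 10.4, so this second candidate sits at the middle of the list, unlike its neighbour.

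The start of the host gene, that of its longer transcript, held a weaker region. In the pooled list it covered I:13470195-13470550, with a signal of 30.1, a −log10 q of 2.24 and its summit 2 bp upstream of the ints-8 start. Replicate 1 gave a signal of 18.0 with the summit 33 bp upstream, and replicate 2 a signal of 12.7 with the summit 54 bp downstream, in exon 1. The ranks were 260 in the pooled list, 311 in replicate 1 and 679 in replicate 2. The region missed the thresholded list by 11 ranks: the last peak had a signal of 30.7 and the best candidate below it 30.6. Its summits spanned 87 bp over the 3 lists, against 12 bp at rpr-1. Within each list the signal at rpr-1 was 2.74 times that at the ints-8 start in the pooled list, 2.70 times in replicate 1 and 2.95 times in replicate 2.

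**Figure D3:**
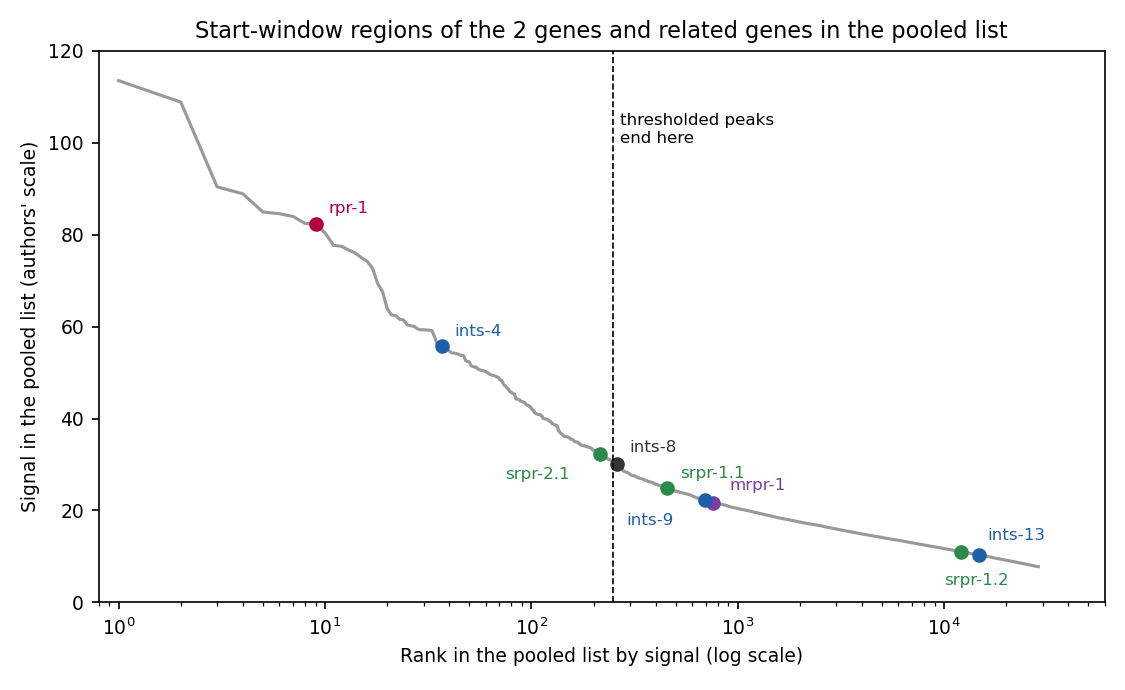
Signal in the pooled list (authors' scale) against rank (log scale); the grey line is all 28574 candidates, the dashed line the end of the thresholded peaks, and the points are the best start-window regions of the named genes. rpr-1 stands at rank 9 and ints-4 at rank 37, while ints-8 at rank 260 and mrpr-1 at rank 761 lie below the last peak.

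Within 5 kb of the 2 gene bodies lay 1 region of the thresholded list, 6 of the pooled list, 9 of replicate 1 and 8 of replicate 2. The other 4 pooled candidates besides the peak and the ints-8 start were the overlapping one at rpr-1 and 3 upstream of ints-8, over the neighbouring gene Y48G10A.3. The first of those, I:13470414-13470769, overlapped the ints-8 start region and had its summit 221 bp upstream of that start in an exon of Y48G10A.3, with a signal of 13.1 and rank 6720. Replicate 1 held it too (signal 10.4, rank 3702). In replicate 2 no summit lay in it, but 2 regions overlapped its edges. They were the one at the ints-8 start and I:13470738-13471113 (signal 6.86, rank 9110), with its summit 555 bp upstream of that start. The remaining pair had signals of 8.19 and 8.24 and ranks of 25762 and 25417, with the nearest starts those of the ncRNA gene Y48G10A.9 and of Y48G10A.3. A −log10 q of at least 2 was reached by 2 pooled regions, at rpr-1 and at the ints-8 start, and in each replicate only by the region at rpr-1.

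Inside ints-8 the 2 replicates shared no region but those at rpr-1 and at the ints-8 start. Replicate 1 had summits at exon 10 in the 3′ UTR, exon 9, intron 6, intron 5 and intron 4, with signals from 4.86 to 6.63 and ranks from 16068 to 29820. Replicate 2 had them at exon 6, intron 3 and intron 2, with signals from 4.11 to 7.07 and ranks from 8317 to 28057. No pooled candidate covered any of these places. Exons and introns are those of the longer transcript. The intron 5 and intron 4 regions of replicate 1 (ranks 21569 and 28142) both covered the start of the shorter transcript at 13464846. Replicate 2 had no region over that start. The pooled list held 1.33 summits per 10 kb of ints-8, both of them in rpr-1, against 2.85 over the whole genome. The replicate lists held 3.996 and 3.33 per 10 kb against 2.99 in each.

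Just outside the 5 kb limit lay a peak about as strong as that at rpr-1. It covered I:13475589-13475706, began 5218 bp from the ints-8 body, and had its summit 1476 bp upstream of Y48G10A.3 and 5290 bp upstream of the ints-8 start. Its signal was 80.4 with rank 10, and it ranked 25 in replicate 1 and 2 in replicate 2, so the order of the 2 peaks differed between replicates. Farther along the chromosome, peaks followed near soem-1 (rank 90), Y87G2A.18 (rank 79), Y87G2A.25 (rank 11) and ints-4 (rank 37), all on the side of the ints-8 start. The ints-4 peak, at I:13663245-13663600, lay 199468 bp from the rpr-1 start.

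Among the 11 annotated Integrator subunit genes, 4 had a pooled candidate from 1000 bp upstream to 200 bp downstream of the start, and 1, ints-4, had a thresholded peak there. Over all genes with such a candidate, 2.49% (373 of 14976) had a peak. ints-4 had signals of 55.7 in the pooled list, 32.5 in replicate 1 and 19.8 in replicate 2, with the summit 71, 69 and 71 bp past the start and replicate ranks of 47 and 113. Its signal was 1.85 times that at the ints-8 start in the pooled list, 1.80 times in replicate 1 and 1.56 times in replicate 2. In mammals the products of ints-4, ints-9 and ints-11 belong to the module of Integrator that cleaves RNA. ints-9 had a candidate of signal 22.2 at rank 697, 90 bp upstream of its start, with ranks of 801 in replicate 1 and 14273 in replicate 2. ints-13 had one at rank 14729, 690 bp upstream. The other 7 genes had no pooled candidate. Among them, ints-11 had a region in replicate 2 alone, at rank 18683 and 615 bp upstream. So did ints-1 (rank 12444) and ints-2 (rank 25904), and ints-6 had one in replicate 1 alone (rank 16267). With 4 genes, a count of 1 is too small to set against the 2.49%.

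The protein partners of rpr-1 gave no peak. Of 9 genes named for RNase P or RNase MRP, 5 had a pooled candidate and 1, rpr-1 itself, a thresholded peak. That is 20% beside 2.49% over all genes, but the single gene is the one chosen for its signal, so nothing is read from the share. mrpr-1 came next, with signals of 21.7 in the pooled list, 16.3 in replicate 1 and 10.4 in replicate 2, and ranks of 761, 451 and 1769. Its summits lay 53 bp past the start, 91 bp past it and 41 bp upstream, a wider spread than at rpr-1. The signal at rpr-1 was 3.79 times that at mrpr-1 in the pooled list, 2.98 times in replicate 1 and 3.60 times in replicate 2. popl-7 and Y62E10A.24, an RNase P protein subunit gene, share 1 region at rank 14756, and H35B03.2 had one at rank 9522, 606 to 820 bp upstream of the starts. popl-1, popl-4, popl-5 and Y37E11AM.4 had no pooled candidate. Of these, popl-1 (rank 1191, 802 bp upstream) and popl-4 (rank 16097, 970 bp upstream) had a region in replicate 2 alone.

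Other small RNA genes listed here, made by Pol III or Pol II, had weaker peaks than rpr-1 or none. Because rpr-1 was chosen for its signal, this order is no result. The annotation does not name U6 genes, so the list held 24 genes named as 5S rRNA, RNase P, RNase MRP, signal recognition particle (srpr) or small cytoplasmic RNA, plus every gene of biotype snRNA, 153 in all, most of which are Pol II genes. Of these, 67 had a pooled candidate and 10 a peak (14.9%, beside 2.49% over all genes), and the count was 5 with the best regions of replicate 1 alone and 8 with those of replicate 2 alone. Of the 10, 7 were snRNA genes, 4 of them SL2 RNA genes of the name sls-2, which Pol II transcribes. The peaks at sls-2.2 (rank 30), sls-2.4 (rank 42), WBGene00014291 (rank 143), WBGene00014366 (rank 180), sls-2.8 (rank 186), WBGene00014543 (rank 214) and sls-2.1 (rank 229) were all weaker than that at rpr-1 (rank 9). With snRNA genes taken out, 9 of the 24 named genes had a candidate and 3 a peak, again with rpr-1 counted: rpr-1, srpr-2.2 (rank 208) and srpr-2.1 (rank 216). The 22 snRNA genes recognised as U6 by their sequence added 1 more, WBGene00014543. Of 16 5S rRNA genes 3 had a pooled candidate and none a peak, and yrn-1 had none in the pooled list.

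At srpr-2.1 the pooled signal was 32.2 with the summit 131 bp past the start, and the best replicate regions lay 67 bp past it (rank 1726 in replicate 1) and 128 bp past it (rank 169 in replicate 2). At srpr-2.2 the pooled signal was 32.7 with the summit 191 bp past the start, while the best replicate regions lay 9 bp upstream (rank 297 in replicate 1) and 25 bp upstream (rank 1292 in replicate 2). Among summits up to 200 bp past the start, where the search ended, the best thus lay inside srpr-2.1 in all lists. At srpr-2.2 the best lay inside the gene only in the pooled and thresholded lists, and summits deeper in the gene were not searched. Of the 4 srpr-1 and srpr-2 genes, a share of 48.2% to 70.0% of the 50-base words in a stretch of 356 bp centred on the start occurred once in the genome, against 100% at mrpr-1 and in the pooled regions of rpr-1 and of the ints-8 start. The share was also 100% at srpr-3 and yrn-1, neither of which had a pooled candidate. Over the 22 U6 genes the share ran from 39.7% to 100% with a median of 75.6%. The U6 gene at 100%, B0205.15, had no region in its start window in any list. Reads from words that occur more than once can be placed at any copy or dropped. How the authors handled them is not stated, and its part in the lower ranks was not tested.

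As a nested gene rpr-1 has many companions. In the annotation 2817 ncRNA genes lie whole within an intron of a protein-coding gene; 1190 had a pooled candidate in the start window and 24 a peak, 2.02% of those with a candidate, beside 2.49% for all genes. Split by strand, 17 of 774 (2.196%) opposite to a host had a peak, as did 8 of 424 (1.89%) on the strand of one. The 24 genes shared 22 peaks, of which rpr-1 had the largest signal. T03F7.14 followed (signal 59.3, rank 29), then C26C6.12 (54.7, rank 40), C14B9.13 (42.8, rank 97), F17H10.8 (42.2, rank 100), T24B8.22 (41.4, rank 104) and WBGene00201758 (41.1, rank 105). C04A2.11 (rank 117), F40F9.15 (rank 133) and Y67D8A.6 (rank 135) completed the first 10. For 8 of the 22 peaks the nearest start was that of a tRNA gene, and for 12 that of an ncRNA gene, rpr-1 being one. Of those named, the peaks at C14B9.13, F17H10.8 and C04A2.11 were nearest to tRNA starts. The peak at T03F7.14 was nearest to the snoRNA gene T03F7.8, and the summit at WBGene00201758 lay 574 bp upstream.

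Peaks at the starts of other non-coding genes were ordered by how alike their ranks were to those of rpr-1. Likeness was the distance between log2 ranks in the pooled and both replicate lists, over the 56 peaks, that at rpr-1 included, whose summit lay within 50 bp of the start of a non-coding gene. Among these the closest were at T13H2.9, an ncRNA gene (ranks 24, 18 and 46 in the pooled, replicate 1 and replicate 2 lists), WBGene00000308, a tRNA gene (21, 38 and 32), and sls-2.2 (30, 50 and 16). sls-2.4 (42, 43 and 25) and the snoRNA gene T03F7.8 (29, 31 and 61, the peak listed above at T03F7.14) came next. All had lower pooled signals than rpr-1, from 54.3 to 62.5, and the nearest of them was 3.07 log2 units away. Over peaks of any location 14 were nearer than that, among them the peaks near the protein-coding genes Y87G2A.25 (2.33) and Y48G10A.3 (2.85), so a small RNA gene is set by the choice of peaks and not by the ranks.

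The sequence around the summit was compared with that of the other regions, 100 bp to each side. In the window at rpr-1 59.7% of bases were G or C, more than in 97.2% of the thresholded peaks and 99.7% of pooled candidates, whose medians were 46.8% and 37.8%. The window at the ints-8 start had 47.3%. Of 8 words searched on both strands, the rpr-1 window held only the repeat GAGAGA, found in 41.0% of peaks and 14.5% of candidates. It lacked the word CTGCGTCT (12.9% of peaks, 2.39% of candidates) and the nuclear receptor word AGGTCA with its reverse complement TGACCT (both strands of the same word, 5.22% of peaks and 5.70% of candidates). It also lacked the related word AAGTCA (4.82% and 9.08%), the tRNA B box word GGTTCGA (8.84% and 1.91%), the TATA variant TATAAA (10.8% and 17.8%) and TTTTT (67.5% and 82.2%). The window at the ints-8 start held TTTTT and no other of the 8. GGAACCCG, which overlaps the upstream word and was picked after seeing it at rpr-1, was in 1.205% of peaks and 0.329% of candidates, and TATATA in 4.82% and 5.50%.

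The upstream and TATA words shown above for the related genes stand close to the start of rpr-1 as well, the upstream word beginning 66 bp and the TATA word 30 bp before it. At mrpr-1 they begin 68 bp and, in 2 overlapping copies, 34 and 32 bp before the start, and at 4 U6 genes 67 and 31 bp before it. Among 46890 genes of the nuclear chromosomes, 94 (0.200%) had the upstream word on their own strand within 100 bp before the start, 2376 (5.07%) had the TATA word, and 8 (0.0171%) had both. The 8 were rpr-1, mrpr-1, 4 U6 genes, the snoRNA gene W05B2.9 and the piRNA gene 21ur-9675. The last 2 differ in arrangement. At W05B2.9 the upstream word begins 85 bp and the TATA word 49 bp before the start. At 21ur-9675 they begin 62 and 99 bp before it, in the reverse order. Of the snRNA genes, 33 of 129 (25.6%) had the upstream word, against 27 of 346 snoRNA genes and 1 of 612 tRNA genes. Among the 22 U6 genes 5 (22.7%) had the upstream word, 16 (72.7%) the TATA word and 4 (18.2%) both. Because the words were read off rpr-1 itself, its presence among the 8 is no result.

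Having both words did not go with a fixed level of signal. Of the 8 genes 6 had a pooled candidate and 2 a peak, at ranks 9 (rpr-1) and 214 (WBGene00014543). For the latter the pooled summit lay 99 bp past the start, and the best start-window region of replicate 1 had rank 39. In replicate 2 the best start-window region had rank 22366 and lay 786 bp upstream. Summits more than 200 bp past the start were not searched. The U6 genes WBGene00195000 and WBGene00195002 had pooled ranks of 18759 and 11808, and WBGene00195001 had no candidate. Of the 86 genes with the upstream word only, 55 had a pooled candidate and 3 a peak, at ZK994.7 (rank 54), Y53F4B.47 (rank 92) and sls-2.8 (rank 186). Among those with a candidate, 2 of 6 genes with both words had a peak, as did 3 of 55 with the upstream word only. Over all genes with a candidate the share was 2.49%. The 2 include rpr-1, from which the words were read, and these counts are too small to order.

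**Figure D4:**
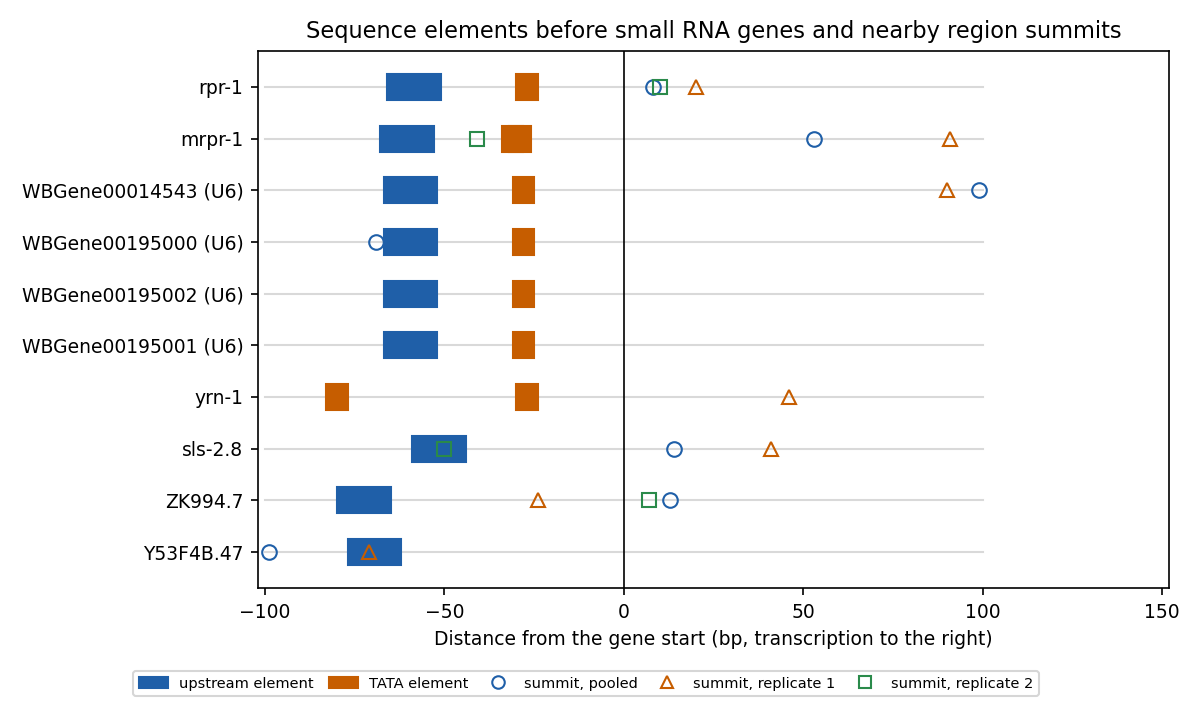
Position of the upstream word (blue) and TATA word (orange) and of region summits (open symbols; circle pooled, triangle replicate 1, square replicate 2) by distance from the gene start in bp, for 10 genes, with summits farther than 100 bp upstream not drawn. At rpr-1 the 3 summits lie 8 to 20 bp past the start, downstream of both words; at mrpr-1 they spread from 41 bp upstream to 91 bp downstream.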

How the data were processed

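Region lists from 2 replicates were used as the authors deposited them on ce11; their ce10 lists were not used. Per the description files of the authors, candidates were called against a control and peaks kept by comparing replicates. Aligner, caller, versions and threshold: not given in the sources used here. Columns used were the authors' deposited signal, of unstated scale, their −log10 q value (capped) and the summit position. No read counts are given, so depth and precision are unknown.

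Genes came from Ensembl release 115 (WBcel235) and sequence from RefSeq. A gene had a candidate or peak when a summit lay between 1000 bp before and 200 bp after its start; regions overlapped from 1 bp. Positions are 1-based; distances count the start as 0. U6 genes were recognised among snRNA genes by 2 conserved words and a length under 120 bp. Members and lists were chosen with earlier results of these data known. Named genes were the pair, genes nearest to regions within 5 kb, up to 10 members of each list with a peak, and the 5 peaks most like rpr-1 by rank among those within 50 bp of a non-coding start; other names were chosen after their values were seen. No test was run: with 1 group there is no contrast, and the genes were chosen by their signal. Per the labels the replicates are biological; what was separate about them is not stated. The code was tested on simulated data. Python 3.11.15, pandas 2.3.3 and NumPy 2.4.6 were used.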

Additional observations from a re-analysis of the deposited data

How the results depend on the processing

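8 results were recomputed under 47 alternatives, and 30 of these stayed within 1.5 times a count or within the spread of the replicates. The other 17 moved beyond those limits. Some of the 30 could not have moved, so their share does not measure robustness. Counting over all genes of a list keeps its number with a peak, and the pooled summit at rpr-1 is that of the thresholded peak. The spread came from the same 2 replicates that were compared with it. The RNase P count rests on rpr-1, which was chosen for its signal. The results are ranks, distances and counts, which have no direction, so a reversal could not be scored. The rank of the rpr-1 region ran from 7 to 9 in single replicates. It was 102 by −log10 q (mean rank of ties), 7 among regions in a start window and 2 on its own chromosome. Its summit lay 10 to 20 bp past the start in single replicates. The rank of the ints-8 start region ran from 311 to 679 in single replicates. Pooled regions within 5 kb fell to 2 at a −log10 q of at least 2, and numbered 8 to 9 in single replicates. With summits within 50 bp of the start, 5 nested ncRNA genes, 0 Integrator genes and 5 of the list with snRNA genes had a peak. With the stronger 50% of peaks, 8 nested ncRNA genes and 3 of the list with snRNA genes had one. That list gave 5 to 8 in single replicates, 3 without snRNA genes and 4 with U6 genes recognised by sequence in their place, both added after seeing the data. Nested genes on the strand of the host numbered 8, and 63 with tRNA, snoRNA, snRNA and miRNA genes added. Single replicates gave 24 to 25 nested ncRNA genes, and 1 Integrator and 1 RNase P gene each. No paired analysis was possible because there is 1 group. With depth unknown, the distance of the ints-8 start region from the threshold cannot be given an error, and a missing candidate does not show that binding was absent.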
